A study of Mus musculus with 6 samples.

Results

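The 9 genes described here mark the oligodendrocyte lineage. They comprise 7 genes of oligodendrocyte precursors and newly committed cells (Olig1, Olig2, Pdgfra, Cspg4, Sox10, Nkx2-2 and Gpr17) and 2 genes of myelin (Mbp and Cnp). They were chosen by gene symbol from the 22651 genes of each deposited table, and all 9 were among the 13969 genes with enough counts to be tested. None of the 9 passed edgeR's test between TSC1-deleted and control telencephalon. Olig1 and Olig2 were lower and Cspg4 was higher in every TSC1 library than in any WT library. Such separation held for 22.7% of all genes tested, and Olig2 lay apart only narrowly. The myelin genes overlapped between the groups in level. Most Mbp transcripts were assigned to a form that does not encode classical myelin basic protein. The mean length of Mbp transcripts was longer in every TSC1 library, as held for 6.22% of genes whose mean length varied.

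Oligodendrocytes are the cells that wrap axons in myelin in the central nervous system. They come from migrating, dividing precursors that carry the growth factor receptor Pdgfra and the proteoglycan Cspg4 (NG2), and that are specified by the transcription factors Olig2, Olig1, Sox10 and Nkx2-2. In the forebrain, precursors arise in successive waves from ventral and then dorsal germinal zones, and most myelin of the mouse cortex is laid down after birth, when genes such as Mbp and Cnp rise. The tuberous sclerosis complex, of which Tsc1 is a subunit, restrains mTORC1, a kinase complex that promotes growth and protein synthesis.

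The mRNA-sequencing compared telencephalon tissue of newborn mice (postnatal day 0), 3 of the WT and 3 of the TSC1 group. The WT mice were TSC1 flox/flox;Emx1 +/+, littermates without Cre, and the TSC1 mice were TSC1 flox/flox;Emx1-cre/+, so that both groups carried floxed Tsc1 on both chromosomes. Cre was expressed from the Emx1 locus, which is active in progenitors of the dorsal telencephalon. Cells of other origins, including ventrally derived precursors, microglia and vessels, therefore kept Tsc1 in the TSC1 mice, and the tissue mixed both kinds.

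Library totals ranged from 14119365 to 17772865 expected counts, at which 3 counts in a gene equal 0.169 to 0.212 CPM, counts scaled to a common library total. Tsc1 had TPM values, a share of all transcripts corrected for length, of 50.2, 32.0 and 28.4 in WT replicates 1, 2 and 3 and of 27.1, 21.7 and 22.4 in the TSC1 replicates. Every TSC1 library was below every WT library, with a log2 fold change of -0.66 ± 0.18 (SE, n = 3 against 3) and an edgeR adjusted p of 0.09998, and these counts include reads outside the deleted part. On the first principal component, which held 47.7% of the variance, TSC1 replicate 3 lay at -3.95, beside WT replicate 1 at -7.43, while the other TSC1 libraries lay at 26.5 and 30.3 and the other WT libraries at -19.1 and -26.3. As a check of the tissue label, Neurod2, a transcription factor of cortical excitatory neurons, stood at 210.3 to 257.8 TPM, while 8 hindbrain and spinal cord markers summed to at most 0.22 TPM in a library.

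The first question was whether the lineage genes differed between TSC1 and WT telencephalon, gene by gene. By edgeR's quasi-likelihood test, 0 of 9 genes had a Benjamini-Hochberg adjusted p below 0.05, where 1.52% of all genes tested did. At an unadjusted p below 0.05 there were 2 of 9, Olig1 and Cspg4, beside 18% of all genes. DESeq2 called 1 of 9 (Olig1, adjusted p 0.0201), beside 4.61% of its genes. The integrative statistic of the study's methods, with a log2 cut at the 95th percentile of its null in these tables (0.496), called 0 of 9, beside 7.28%. With the fixed cut of 0.42 that the methods state, it called 1 of 9, Cspg4, whose log2 median ratio of 0.422 lay just past that cut, beside 9.79%. In the lists given later, the study's statistic has the cut of 0.496. In normalized CPM, 3 of 9 genes did not overlap between the groups, 2 of them lower and 1 higher in TSC1, beside 22.7% of all genes. These shares are close to those of all genes, and the log2 fold changes of the 9 genes lay between -0.38 and 0.43 around a median of -0.00267 over all genes tested.

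**Figure D1:**
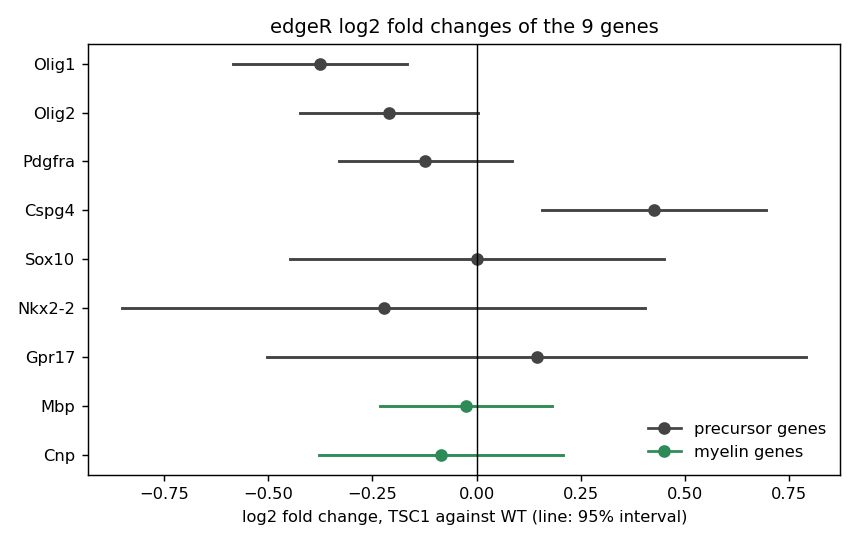
Log2 fold change of each of the 9 genes in TSC1 against WT from edgeR (horizontal axis), with lines for the 95% interval, n = 3 against 3. The intervals of Olig1 (below 0) and Cspg4 (above 0) leave out 0, and those of Nkx2-2, Sox10 and Gpr17 are the widest.

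Levels differed far more between the genes than between the groups. On the TPM scale, which corrects for transcript length, the genes ranked by their mean in WT as Olig1 (91.6), Pdgfra (53.9), Olig2 (30.9), Cnp (27.9), Mbp (22.4), Gpr17 (10.3), Sox10 (7.81), Cspg4 (6.01) and Nkx2-2 (1.85). The ranges of the 3 libraries overlapped, in WT and in TSC1 alike, for the neighbours Olig2 and Cnp, Gpr17 and Sox10, and Sox10 and Cspg4. In TSC1 the order was the same except that Cspg4, with a mean of 8.20, came before Sox10, with 7.95. In TPM, 7 of the 9 genes, among them 5 of the 7 precursor genes, had their highest value in WT replicate 1.

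**Figure D2:**
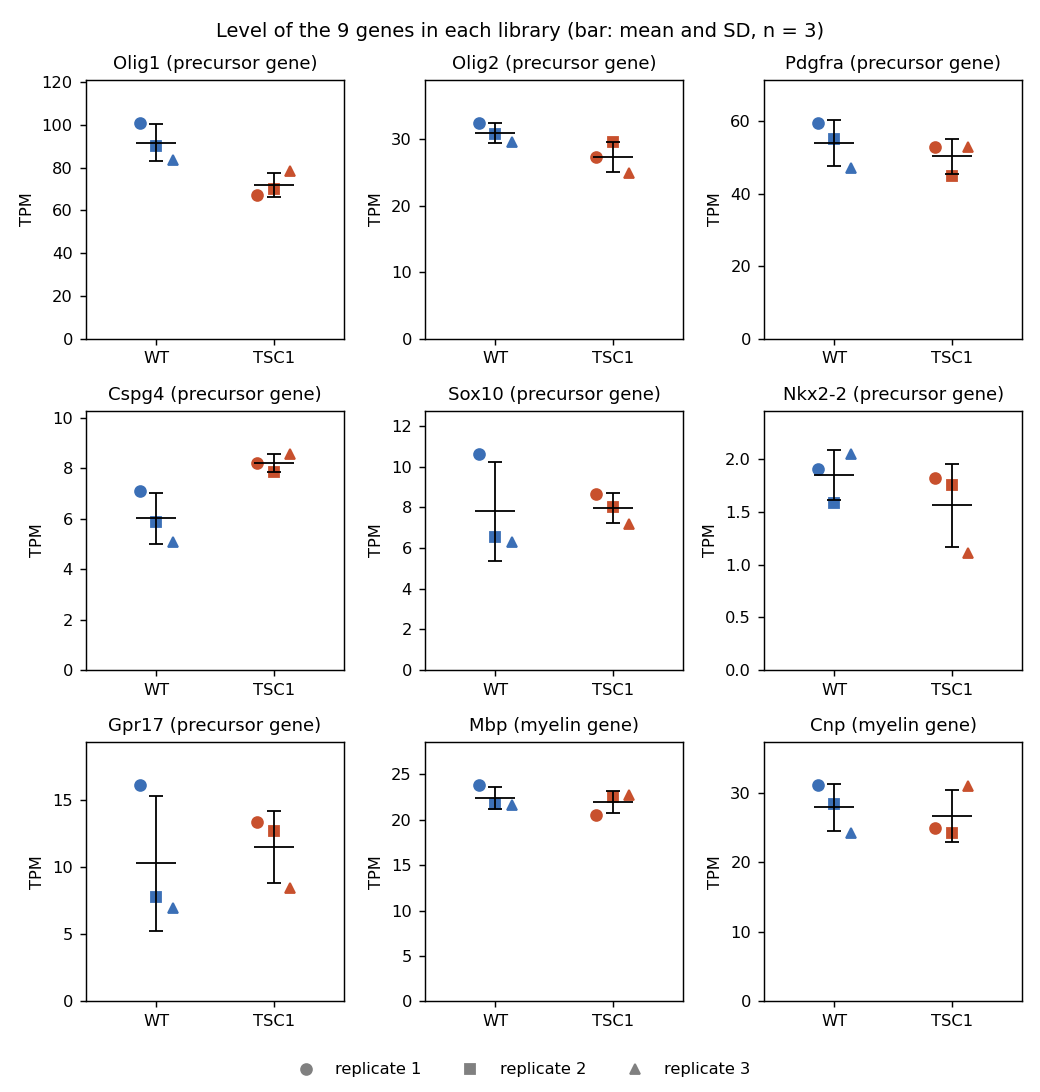
TPM of each gene (vertical axes, from 0) in the 3 WT and 3 TSC1 libraries, with bars for the mean and SD and a symbol for each replicate number. Olig1 and Olig2 lie lower and Cspg4 higher in all TSC1 libraries, and the other 6 genes overlap.

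Olig1 and Olig2 are basic helix-loop-helix transcription factors and neighbours on chromosome 16 of GRCm38. Olig2, at chr16:91225457-91228677, is needed to specify the lineage. Olig1, at chr16:91269772-91271933 and 41094 bases further on the same strand, acts in maturation. Olig1 had TPM values of 100.9, 90.3 and 83.6 in WT and of 67.1, 70.2 and 78.3 in TSC1. The lowest WT library lay above the highest TSC1 library, which was replicate 3, the TSC1 library that lay nearest to WT overall. The log2 fold change was -0.38 ± 0.09 (SE, n = 3 against 3), a ratio of 0.770 with a 95% interval of 0.667 to 0.890, and the edgeR adjusted p was 0.0796. Without TSC1 replicate 3 the log2 fold change was -0.45 and the edgeR adjusted p 0.0232. That fit called 799 of all genes tested, beside 212 with all libraries. Leaving out any other single library gave Olig1 an edgeR adjusted p above 0.05, up to 0.277 without TSC1 replicate 2.

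Olig2 had TPM values of 32.4, 30.7 and 29.5 in WT and of 27.3, 29.5 and 24.9 in TSC1. The groups did not overlap, but TSC1 replicate 2, at 29.48, was almost level with WT replicate 3, at 29.51. The log2 fold change was -0.21 ± 0.09, with a 95% interval of -0.42 to 0.0041 and an edgeR adjusted p of 0.286. In each library Olig1 exceeded Olig2, by 3.11, 2.94 and 2.83 times in WT and by 2.46, 2.38 and 3.14 times in TSC1, and these ratios overlapped through TSC1 replicate 3 alone.

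Sox10 and Nkx2-2 are the other transcription factors of the group. Sox10 (chr15:79154908-79165240), an HMG-box factor that turns on myelin genes, had TPM values of 10.6, 6.54 and 6.28 in WT and of 8.66, 8.0 and 7.19 in TSC1. WT replicate 1 was the highest library and the other WT libraries the lowest, so the groups overlapped fully. Its log2 fold change was 0.0011 ± 0.20, and the 95% interval of -0.45 to 0.45 leaves room for a sizeable difference in either direction. Nkx2-2 (chr2:147177546-147194243), a homeodomain factor of ventral progenitors that also acts when precursors differentiate, had only 21, 21 and 19 expected counts in WT and 18, 18 and 13 in TSC1. Its log2 fold change was -0.22 ± 0.28 with a 95% interval of -0.85 to 0.40, so that a difference of this size was not detectable at this depth.

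To show the upstream sequence of genes whose groups lay apart in opposite directions, the promoters of Olig2 and Cspg4 are given from RefSeq (GRCm38.p6). The table of promoters held 5 of the 9 genes (Olig2, Pdgfra, Cspg4, Nkx2-2 and Cnp), and Olig1, Sox10, Mbp and Gpr17 were not among them. The stretch runs from 250 to 94 bases before the RefSeq start, 157 bases that lie before the GENCODE start of both genes. It was searched on both strands for the E-box CANNTG bound by helix-loop-helix factors, the SOX core ACAAT and the GC box GGGCGG, none of which overlap each other in these sequences. Capitals mark the SOX core and the GC box, which read ATTGT and CCGCCC on the strand shown.
Olig2, chr16:91225300-91225456, plus strand: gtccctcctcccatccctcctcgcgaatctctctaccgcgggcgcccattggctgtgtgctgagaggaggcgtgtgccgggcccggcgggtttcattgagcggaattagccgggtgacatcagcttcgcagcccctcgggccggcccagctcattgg
Cspg4, chr9:56864854-56865010, plus strand: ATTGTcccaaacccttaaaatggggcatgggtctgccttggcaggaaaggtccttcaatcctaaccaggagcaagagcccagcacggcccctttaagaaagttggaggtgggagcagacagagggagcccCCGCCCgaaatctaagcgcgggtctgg
The Olig2 stretch held 66.9% G and C and the Cspg4 stretch 57.3%. In Cspg4 there was 1 SOX core, at position -250, and 1 GC box, at position -120 from the RefSeq start, and neither stretch held an E-box. Of all 32851 promoters in the table, 50.8% held an E-box, 19.3% a SOX core and 17.6% a GC box in the same window.

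Pdgfra and Cspg4 are the surface molecules by which precursors are usually recognized. Cspg4 (chr9:56865033-56899870), the NG2 proteoglycan, is also made by pericytes, the contractile cells of small vessels. It had TPM values of 7.08, 5.86 and 5.09 in WT and of 8.19, 7.85 and 8.56 in TSC1. All TSC1 libraries were above all WT libraries, among which replicate 1 was the highest. The log2 fold change was 0.43 ± 0.12 (SE, n = 3 against 3), a ratio of 1.34 with a 95% interval of 1.11 to 1.62, and the edgeR adjusted p was 0.109. Without WT replicate 1 the log2 fold change was 0.53 and the edgeR adjusted p 0.0471.

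Pdgfra (chr5:75152292-75198215), the receptor for the precursor mitogen PDGF-A, had TPM values of 59.6, 55.2 and 47.1 in WT and of 53.1, 44.9 and 53.1 in TSC1. The lowest library was TSC1 replicate 2, but WT replicate 3 lay below both other TSC1 libraries. With the largest counts of the 9 genes, 1497 to 2368 in a library, it gave a log2 fold change of -0.12 ± 0.09 and an edgeR adjusted p of 0.518. Pdgfra is also made by fibroblasts of the meninges and vessels, whose markers varied widely between libraries as given below. In bulk tissue, fewer cells of a type and less RNA per cell cannot be told apart.

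Gpr17, a G protein-coupled receptor of cells that have just left the precursor state, varied widely within groups. Its TPM values were 16.1, 7.75 and 6.98 in WT and 13.4, 12.7 and 8.47 in TSC1. Replicate 1 was the highest in both groups, and the spread of the WT libraries spanned the TSC1 libraries. In edgeR it had a log2 fold change of 0.14 ± 0.29 with a 95% interval of -0.50 to 0.79, and the edgeR adjusted p was 0.829. Gpr17 lies at chr18:31942997-31949636.

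Ratios within a library do not depend on its total. Olig1 exceeded Cspg4 by 14.2, 15.4 and 16.4 times in WT and by 8.19, 8.94 and 9.14 times in TSC1. The 2 groups stood clearly apart, with means of 15.4 ± 1.09 (SD, n = 3) and 8.76 ± 0.501 (SD, n = 3). Pdgfra exceeded Cspg4 by 8.42, 9.42 and 9.24 times in WT and by 6.48, 5.72 and 6.20 times in TSC1, also without overlap. Since both ratios were chosen after the values of the genes had been seen, they are given with no test. The ratios of Gpr17 to Pdgfra (0.14 to 0.27 in WT, 0.16 to 0.283 in TSC1) and of Gpr17 to Sox10 (1.11 to 1.52 in WT, 1.18 to 1.59 in TSC1) overlapped between the groups.

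**Figure D3:**
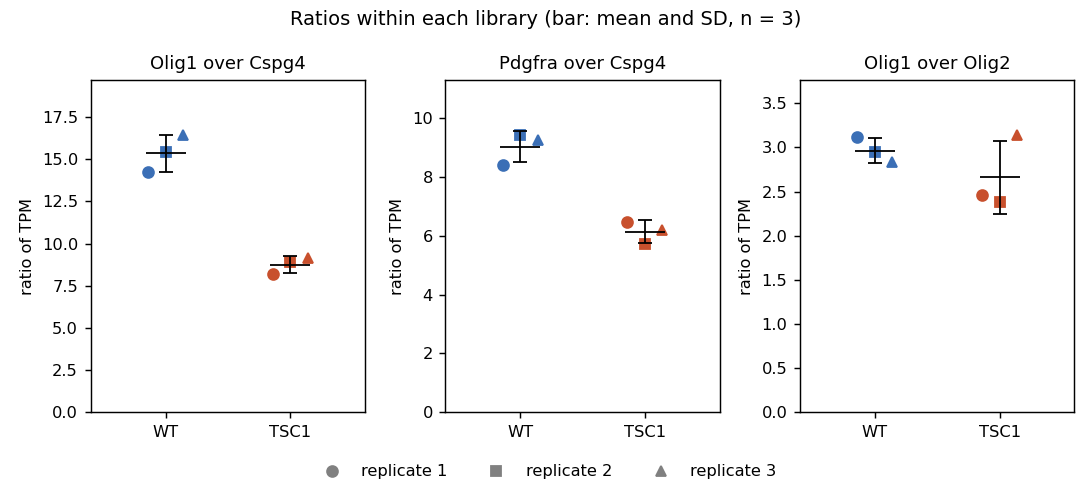
Ratios of TPM within each library (vertical axes, from 0) for Olig1 over Cspg4, Pdgfra over Cspg4 and Olig1 over Olig2, with bars for the mean and SD. The ratios to Cspg4 are lower in all 3 TSC1 libraries, as Olig1 over Cspg4 had to be from the levels of those genes. In Olig1 over Olig2, TSC1 replicate 3 lies with the WT libraries.

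Mbp and Cnp differed little between the groups. Mbp, which encodes myelin basic protein, had TPM values of 23.8, 21.7 and 21.7 in WT and of 20.5, 22.5 and 22.8 in TSC1, and the highest and lowest libraries were both replicate 1. The log2 fold change was -0.03 ± 0.09 with a 95% interval of -0.23 to 0.18 (edgeR adjusted p 0.912). This interval puts the TSC1 level of all Mbp forms together between 0.852 and 1.13 times that in WT. Most of these transcripts were assigned to a form that does not encode classical myelin basic protein, as given below. Cnp (chr11:100574904-100591729), which encodes the cyclic nucleotide phosphodiesterase of non-compact myelin, had TPM values of 31.1, 28.4 and 24.3 in WT and of 24.9, 24.2 and 31.0 in TSC1. TSC1 replicate 3 was level with WT replicate 1, and the other 2 TSC1 libraries were near WT replicate 3. Its log2 fold change was -0.08 ± 0.13 with an edgeR adjusted p of 0.771.

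The Mbp locus (chr18:82475146-82585637) yields 2 families of transcripts. The classical forms encode myelin basic protein, and the golli forms start at an upstream promoter and are also made outside the lineage, in neurons and immune cells. For each gene the tables give a mean transcript length, in which RSEM weights each RefSeq transcript by its estimated abundance. The mean length of Mbp was 4103, 4126 and 4135 bases in WT and 4157, 4220 and 4242 bases in TSC1. All TSC1 libraries exceeded all WT libraries, by 85.3 bases on average (4121 ± 16.2 against 4206 ± 44.2, SD, n = 3), with an exact two-sided permutation p of 0.1, the smallest that 3 against 3 allow. Of the 2992 genes whose mean length varied between libraries, 6.22% were longer without overlap, and Pdgfra, Nkx2-2 and Cnp overlapped.

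Of the 8 Mbp transcripts, 1 golli form has 4797 bases in GENCODE and the others have 638 to 2492 bases. RSEM used RefSeq transcripts, and whether their lengths differ from those of the matching GENCODE transcripts was not tested. With the GENCODE lengths, means of the size measured require that most Mbp transcripts were assigned to the golli form of 4797 bases. Its share lay between 69.9% and 83.3% in WT replicate 1, the lowest library, and between 75.9% and 86.7% in TSC1 replicate 3, the highest, where the lower bound sets all other transcripts at the longest of the other lengths and the upper bound at the shortest. As RSEM assigned the reads, most Mbp transcripts at this age were of a form that does not encode classical myelin basic protein. The long form ends at position 82558703, past the starts of the classical forms from position 82554470 on, so unspliced classical RNA could be assigned to it, and this was not tested.

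**Figure D4:**
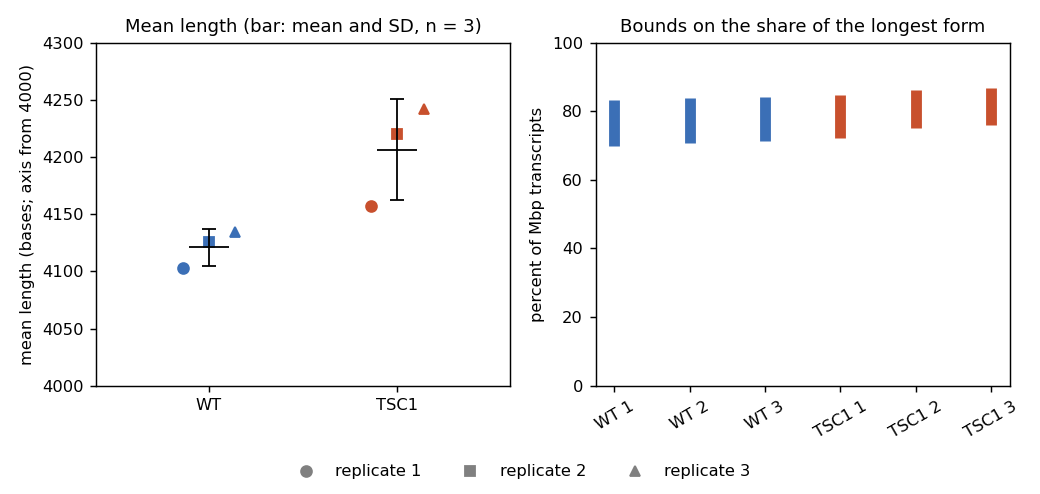
Left, mean Mbp transcript length in bases in each library (vertical axis not from 0), with bars for the mean and SD. Right, for each library, the bounds on the percent of Mbp transcripts assigned to the form of 4797 bases, from 69.9% to 83.3% in WT replicate 1 up to 75.9% to 86.7% in TSC1 replicate 3.

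Summed over the 7 precursor genes, TPM was 228.6, 197.9 and 180.6 in WT and 179.5, 174.9 and 181.6 in TSC1. WT replicates 1 and 2 were the highest, but TSC1 replicate 3 lay above WT replicate 3, and the ratio of the means was 0.883. Summed over Mbp and Cnp, with all Mbp forms included, it was 54.9, 50.1 and 45.9 in WT and 45.4, 46.7 and 53.7 in TSC1. The ratio of the means was 0.966, with overlap. Across the 6 libraries, log2 CPM of Sox10 and Gpr17 followed each other most closely among the 36 pairs of genes (Pearson r 0.95), and Olig2 and Cspg4 were the most opposed (r -0.76). Outside the 9 genes, those most like the precursors' mean z-score were Lzic (r 0.998), Lman1 (0.994) and Slfn9 (0.987), and those most like Olig2 were Sdha (0.995), Glo1 (0.983) and Adi1 (0.981). All of these correlations are over 6 libraries, which share depth and group.

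Of 13 other precursor genes tested, 0 passed edgeR's adjusted p, 1 higher and 3 lower genes had an unadjusted p below 0.05, beside 18% of all genes tested, and the median log2 fold change was -0.10. The most abundant were Ptprz1, a receptor phosphatase (log2 fold change -0.15, adjusted p 0.36), Cacng4, an AMPA receptor auxiliary subunit (-0.27, adjusted p 0.151), and Vcan, the proteoglycan versican (0.10, adjusted p 0.555). Sox8 and Sox6, named after their values were seen, came nearest to the threshold. Sox8, a relative of Sox10, had TPM values of 32.3, 25.3 and 26.1 in WT and of 22.5, 18.4 and 18.1 in TSC1, and an edgeR adjusted p of 0.0615. Sox6, which is also made by cortical interneurons and progenitors, had 24.5, 23.5 and 23.6 in WT and 19.6, 17.9 and 19.6 in TSC1, and an edgeR adjusted p of 0.0519. DESeq2 called both, and the study's statistic called 1 gene of the list, Tnr. Tnr was higher, with a log2 fold change of 0.39 and an edgeR adjusted p of 0.201. Of the 13 genes, 5 had log2 fold changes above 0 and 8 below. In normalized CPM, 5 did not overlap between the groups, beside 22.7% of all genes tested. Bcan (0.11) and Pcdh15 (0.19) were higher in every TSC1 library, and Sox8, Sox6 and Cacng4 were lower.

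Of the genes of committed oligodendrocytes, 7 of the 12 symbols listed had a row and 5 were tested. By edgeR 0 passed, 0 had an unadjusted p below 0.05, DESeq2 and the study's statistic called 0, and the median log2 fold change was 0.03. Fyn, a kinase that neurons also make, had a log2 fold change of -0.02, Tns3, a tensin of newly formed oligodendrocytes, 0.03, and Bcas1, a marker of early myelinating cells, 0.25.

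Of 14 other myelin genes tested, 0 passed edgeR's adjusted p and 3 had an unadjusted p below 0.05, all lower, beside 18% of all genes tested. Their median log2 fold change was -0.09. DESeq2 called 1 gene of the list and the study's statistic 2, among them Aspa. Aspa, an enzyme that breaks down acetylaspartate and named after its values were seen, had TPM values of 2.20, 2.55 and 1.77 in WT and of 0.63, 0.66 and 1.27 in TSC1. All TSC1 libraries were below all WT libraries, at no more than 25 counts in a library, with a log2 fold change of -1.36 ± 0.37 and an edgeR adjusted p of 0.105. Mog, a surface protein of mature myelin, had 6.03 to 6.76 TPM in WT and 6.20 to 6.85 in TSC1. Summed TPM of the list was 405.1, 394.9 and 372.9 in WT and 369.7, 304.0 and 352.2 in TSC1, without overlap. The largest parts came from Qk, an RNA-binding protein, Cd9, a tetraspanin, and Cldn11, a claudin, which other cells make as well, with log2 fold changes of -0.15, -0.13 and -0.50.

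The list of signals and regulators of specification, which holds genes that promote and genes that oppose the lineage, had mostly lower values. The list was chosen with earlier results of these data known, so its shares are a description and not an independent test. Of 25 genes, 4 passed edgeR's adjusted p, all lower, beside 1.52% of all genes tested. At an unadjusted p below 0.05 there were 12 lower and 1 higher, beside 18%. DESeq2 called 6, all lower, beside 4.61%, and the study's statistic called 6, all lower, beside 7.28%, among them Wnt7a, Dlx1 and Id4 but not Egfr. Of the 25, 23 had values below 0 and the median log2 fold change was -0.43, beside -0.00267 over all genes tested. Wnt7a, a ligand that guides precursors along vessels, fell from 25.7, 22.1 and 23.4 TPM in WT to 12.4, 13.8 and 14.9 in TSC1 (log2 fold change -0.82 ± 0.11, edgeR adjusted p 0.0158). Dlx1, a homeodomain factor of ventral neuron progenitors that opposes the oligodendrocyte fate, fell from 146.4, 124.6 and 145.5 to 82.6, 85.9 and 97.0 (-0.68 ± 0.10, edgeR adjusted p 0.0183). In both genes the groups stood well apart.

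Id4, an inhibitor of helix-loop-helix factors that delays differentiation, fell with a log2 fold change of -0.52 (edgeR adjusted p 0.0402), and Egfr, a growth factor receptor of progenitors, fell with -0.48 (edgeR adjusted p 0.0471). The more abundant Id2, a relative of Id4, had -0.28 (adjusted p 0.341) and Lingo1, an inhibitor of differentiation, -0.03. Pdgfa, the ligand of Pdgfra and named after its values were seen, had 39.9, 39.5 and 43.7 TPM in WT and 48.6, 47.9 and 58.2 in TSC1. It was higher in every TSC1 library, with a log2 fold change of 0.30 and an edgeR adjusted p of 0.26.

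**Figure D5:**
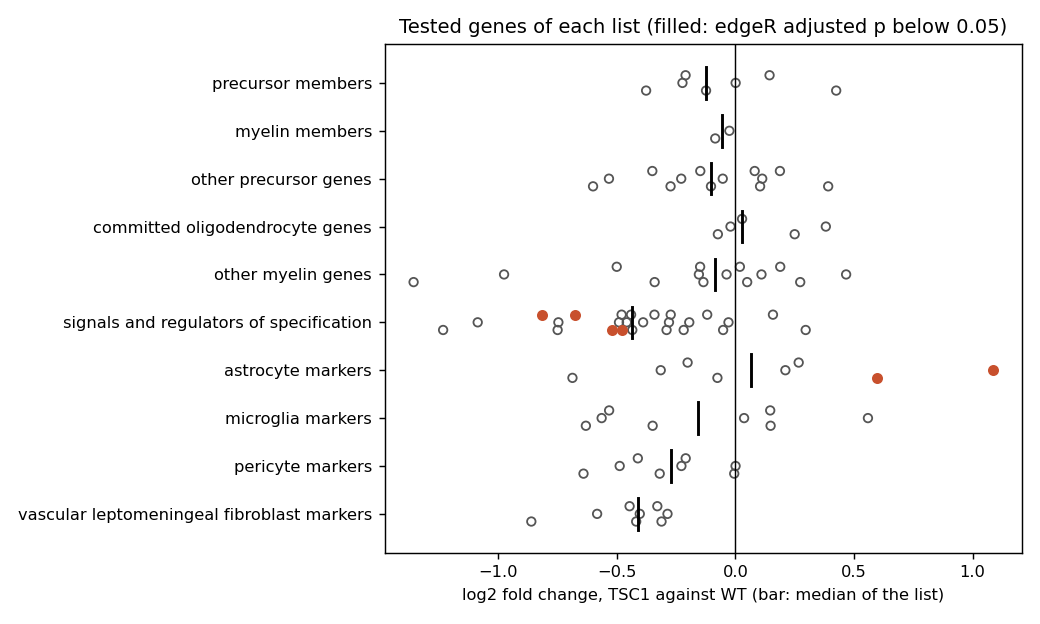
Log2 fold change in TSC1 against WT (horizontal axis) of each tested gene, 1 row per list, with a bar for the median and filled points for an edgeR adjusted p below 0.05. The 4 called regulators lie below 0 and the 2 called astrocyte genes above it, and the 9 lineage and myelin genes at the top are all open.

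The markers of other cell types that make some of the 9 genes differed between libraries as well. Of 8 pericyte markers, which bear on Cspg4, 7 had log2 fold changes below 0 (median -0.27), and 0 passed edgeR's adjusted p, while 4 lower genes had an unadjusted p below 0.05 (18% of all genes did) and DESeq2 and the study's statistic each called 1 (Vtn). Their summed TPM was 189.8 to 243.1 in WT and 153.4 to 191.4 in TSC1, whereas Cspg4 was higher in TSC1. The leading markers were Rgs5 (log2 fold change -0.32, adjusted p 0.122), Vtn (-0.64, adjusted p 0.0805) and Pdgfrb (-0.21, adjusted p 0.378).

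Of 8 markers of vascular leptomeningeal fibroblasts, which bear on Pdgfra, all 8 had values below 0, with a median of -0.41, and 0 passed edgeR's adjusted p, with 1 at an unadjusted p below 0.05, 0 called by DESeq2 and 3 by the study's statistic (Col1a2, Col3a1 and Lum). Summed TPM was 417.3, 437.1 and 265.1 in WT and 288.9, 152.3 and 368.4 in TSC1, lowest in TSC1 replicate 2, the library in which Pdgfra was lowest as well. The leading markers were the collagens Col3a1 (log2 fold change -0.86, adjusted p 0.121) and Col1a2 (-0.58, adjusted p 0.385) and the proteoglycan gene Dcn (-0.45, adjusted p 0.447). The part of these cells in the values of Cspg4 and Pdgfra was not tested.

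Schwann cells, the myelinating cells of peripheral nerve, share Sox10 and Mbp. Their 6 markers summed to 4.24 to 6.28 TPM, 3 of them were tested and 0 passed, with 0 at an unadjusted p below 0.05 and 0 called by DESeq2 or the study's statistic. The highest were Prx (2.02 to 3.11 TPM), Egr2 (1.0 to 1.61) and Erbb3 (0.31 to 0.95). Erbb3 and Foxd3, at 0.95 and 0.82 TPM, were highest in WT replicate 1, in which Sox10 and Gpr17 were highest too, and their part in that library was not tested.

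Of 8 astrocyte markers, 2 passed edgeR's adjusted p, both higher, beside 1.52% of all genes tested. DESeq2 called the same 2, and the study's statistic called these and Gja1, which was lower. Gfap, the intermediate filament of astrocytes, rose from 47.5, 35.4 and 32.0 TPM in WT to 86.2, 89.4 and 73.1 in TSC1 (log2 fold change 1.09, edgeR adjusted p 0.00683). Aldoc, a glycolytic enzyme enriched in astrocytes, had a log2 fold change of 0.60 (edgeR adjusted p 0.0195), while the glutamate transporter Slc1a3 had -0.31 (adjusted p 0.149) and the gap junction protein Gja1 -0.69 (adjusted p 0.13). Of 8 microglia markers 0 passed, with 3 lower genes at an unadjusted p below 0.05 (18% of all genes), 0 called by DESeq2 and 2 by the study's statistic (Aif1 and P2ry12), and the complement genes C1qa, C1qb and C1qc had log2 fold changes of 0.15, 0.15 and 0.04. Among 7 telencephalon markers, 1 passed edgeR's adjusted p, beside 1.52% of all genes tested. It was Gad2, the enzyme that makes GABA, which fell with -1.03 (edgeR adjusted p 0.0318), while Neurod2 had 0.0047. At an unadjusted p below 0.05 there were 2 lower and 1 higher, beside 18%. DESeq2 called 1 higher and 1 lower, beside 4.61%, and the study's statistic 1 higher and 2 lower, beside 7.28%.

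The 7 calls in these lists changed as single libraries were left out. Over all genes tested the number of calls changed as well, from 212 to between 29 and 799. Without WT replicate 1 the lists held 8 calls, among them all of the 7 except Egfr. Without WT replicate 2 only Dlx1 passed, and without WT replicate 3 or TSC1 replicate 2 only Gfap. Without TSC1 replicate 1 none of the 7 passed, while without TSC1 replicate 3 the lists held 19 calls. With limma on log2(TPM + 1) there were 0.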

How the data were processed

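Per the labels, telencephalon RNA of 3 WT and 3 TSC1 mice was sequenced and processed on mm10, 1 gene table per mouse. The authors trimmed the reads, aligned them with MapSplice2 and quantified RefSeq genes with RSEM 1.2.12. The deposited expected counts are RSEM's estimates, not normalized. The deposited TPM and FPKM values correct them for effective length and depth.

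Expected counts were rounded and tested with edgeR 4.0.16 in R 4.3.3 (TMM, filterByExpr, quasi-likelihood F-test). P-values were adjusted by Benjamini-Hochberg over all genes tested, with a threshold of 0.05. Adjusted p-values given without a tool are from this fit. Fold changes are TSC1 over WT, with SE and 95% intervals from the fit. Mean transcript lengths were compared by exact permutation. CPM used TMM factors, and correlations used log2 CPM with a prior count of 2. Alternatives were RLE and upper quartile scaling, DESeq2 1.42.0, limma 3.58.1 on log2(TPM + 1), the study's integrative statistic with its cut from these data or as stated, other filters, effective length offsets, a block for the replicate number, and leaving out single libraries. The study's methods name no unit for their test, so the count test was the main one. Scripts were tested on simulated data.

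Positions are from GENCODE (GRCm38) and promoters from RefSeq. The 9 genes and all lists were chosen with earlier results of these data known. Values are given in full for the 9 genes and Tsc1, and of each other list for genes that passed and the 3 most abundant. The 3 genes most like the precursors and like Olig2 were named by Pearson r. Listed symbols with no row were not analysed here, and some genes that this rule would name are not reported here. The labels do not say how the mice of a group were related, and p-values measure the spread between these 6 samples. All pairs of samples of a group differed by more than counting noise. Intervals on shares of Mbp forms are bounds, not sampling errors.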

Additional observations from a re-analysis of the deposited data

How the results depend on the processing

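With 3 libraries a group, the 95% intervals of 7 of the 9 genes include 0, and Nkx2-2 is limited by its 13 to 21 counts. The count of 9 genes past the threshold, 0, became 1 with DESeq2 (Olig1) and 1 with the study's statistic at its stated cut (Cspg4), an alternative chosen after seeing the data, and ran from 0 to 1 as single libraries were left out. All genes called, 212, became 637 with DESeq2, 21 with limma on log2(TPM + 1), 1008 with the study's statistic (1355 at its stated cut), 346 with no filter and 551 with the replicate block, and ran from 29 to 799 as single libraries were left out. The 7 calls in the other lists became 14, 0 and 21 with DESeq2, limma and the study's statistic (28 at its stated cut) and 16 with the replicate block, and ran from 0 to 19 as libraries were left out. The cause of these changes was not tested. The correlation of deviations from the group mean between samples of the same replicate number was 0.27, -0.13 and 0.32. So few values cannot decide whether samples of a number were paired. With the replicate block 0 of the 9 genes passed.

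Directions turned for Sox10 (-0.028 with upper quartile scaling, -0.0011 with at least 10 counts in every sample, and -0.11 to 0.26 as libraries were left out), Gpr17 (-0.049 to 0.591 as libraries were left out), Mbp (0.047 with the study's statistic at either cut, and -0.070 to 0.043 as libraries were left out) and the length of Cnp transcripts (-1.63 bases with effective length). The summed precursor level in TSC1 over WT was 0.854 in FPKM. Olig1, Olig2, Pdgfra, Nkx2-2 and Cnp stayed lower and Cspg4 higher in all settings run, but small values moved severalfold as libraries were left out. Nkx2-2 ran from -0.35 without TSC1 replicate 2 to -0.045 without TSC1 replicate 3, Cnp from -0.22 without TSC1 replicate 3 to -0.019 without TSC1 replicate 1, and Pdgfra from -0.19 without WT replicate 3 to -0.053 without TSC1 replicate 2.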
